A study of Mus musculus with 8 samples.

Results

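The 43 genes described here encode subunits of mouse RNA polymerase II and of the general factors that place it at a promoter. These factors are TFIIA, TFIIB, TFIID, TFIIE, TFIIF and TFIIH. Taf4, of TFIID, is not among the 43, and its symbol was not among those used. The 43 were chosen by name, from the known make-up of these complexes, with earlier results of these data known. All 43 were found among the 34976 gene symbols used from the deposited table. CF-1, an outbred mouse stock, gave the embryos, which were taken at the late 2-cell stage, and each library was made from a collection of 40 embryos. In the Med13-MO group (4 libraries) the early 1-cell embryo had received a morpholino that the labels describe as directed at the start site of Med13. In the Scr-MO group (4 libraries) it had received a scrambled morpholino. Both groups were therefore injected with an oligomer, no uninjected embryos were analysed here, and the labels name no strain, sex or batch that differs between them. A morpholino binds its target RNA and can block translation or splicing.

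RNA polymerase II transcribes the protein-coding genes but cannot find a promoter alone. TFIID, which holds the TATA-binding protein TBP and its associated factors (TAFs), binds the core promoter, TFIIA and TFIIB settle it there, TFIIF brings the polymerase, and TFIIE and TFIIH open the DNA and phosphorylate the polymerase tail. Mediator, of whose kinase module MED13 is a subunit, links activators to this assembly. In the mouse the late 2-cell stage is the time of the main wave of zygotic transcription, so an mRNA at this stage can come from the store left by the egg, from the embryo, or from both. The title of the series puts the comparison to the question of what MED13 does when the zygotic genome is activated.

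Levels are given as FPKM, fragment counts scaled for transcript length and library depth, summed over all transcript models of a symbol. Read back from the steps in the low values, with a step taken as 0.5 fragments, the library totals were 31378637 to 45748615 fragments in Med13-MO. In Scr-MO they were 33541382 to 48049802 fragments. FPKM is a share of a library, so fewer embryos contributing and less RNA per embryo cannot be told apart. Med13 mRNA itself averaged 42.2 ± 2.14 FPKM in Med13-MO and 41.3 ± 4.31 FPKM in Scr-MO (SD, n = 4 each; two-sided exact permutation p = 0.629, smallest possible 0.0286), which checks neither the labels nor the protein. The libraries parted by group on the first principal component, and Scr-MO replicate 2 stood apart on the second. That library had the fewest detected genes, 25781 against 28338 to 30008 in the other 7, and the largest share of its summed FPKM in its 10 top genes, 20.8% against at most 17.5% in the others. Of 10 markers of 2-cell embryos, all of them tested, 7 rose in Med13-MO. Markers of eggs moved most: 7 of 8 rose, and their summed level was 361 to 474 FPKM in Med13-MO and 95.6 to 117 FPKM in Scr-MO. The 10 cumulus and granulosa markers summed to 1.01 to 1.64 FPKM in Med13-MO and 0.890 to 2.59 FPKM in Scr-MO, and none reached the filter. Of their defining genes, Foxl2 was at 0 in 4 Med13-MO and 2 Scr-MO libraries, Amh in 2 and 2, and Fshr in 1 and 2. Inha, Inhba and Ptx3 were also at 0 in some libraries. Cyp19a1, Tnfaip6, Kitl and Has2 were above 0 in all 8 libraries. Cyp19a1 had 0.101 to 0.862 FPKM and Tnfaip6 0.253 to 1.16 FPKM, both highest in Scr-MO replicate 2. Of the oviduct markers, Ovgp1 fell, with a mean of 2.18 FPKM in Med13-MO and 3.49 FPKM in Scr-MO (limma adjusted p = 0.0440). Its groups did not overlap. Epcam of the oviduct and Cd68 and Itgam of blood did not pass, and no sperm marker reached the filter. The part of these differences in the results below was not tested.

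Most of the initiation machinery did not pass the test, and the members that did went in both directions. By limma on log2(FPKM + 1), 4 of the 43 members rose in Med13-MO, namely Polr2g, Gtf2f2, Gtf2b and Polr2j, and 2 fell, namely Gtf2h2 and Taf2, at an adjusted p below 0.05. That is 14.0% of the members, against a background of 17.1% of the 11755 genes tested, so the share called was near that of any gene. Rises made up 9.29% and falls 7.81% of all genes. All 43 members had a mean FPKM of at least 1 and were tested. Their median log2 difference was -0.05, beside -0.06 over all genes tested, with 20 members above 0 and 23 below. Polr2g and Gtf2f2 differed by 2-fold or more, and no other member did. Without Med13-MO replicates 2, 3 or 4 or Scr-MO replicates 1 or 3 the rises came to 2, and without Med13-MO replicates 2 or 3 or Scr-MO replicate 3 the falls came to 0.

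Levels differed far more between members than between groups. The TFIIA precursor gene Gtf2a1 had the highest mean summed level over the 8 libraries, 94.3 FPKM, followed by Taf9 with 68.9 and Polr2f with 56.9 FPKM. These sums run over 3 transcript rows for Gtf2a1, 5 for Taf9 and 1 for Polr2f. By the most abundant row alone, Gtf2a1 had 44.0, Taf9 26.1 and Polr2f 56.9 FPKM, so the order depends on the summing. At the other end were the TFIIH helicase Ercc2 with 1.80 FPKM and the kinase Cdk7 with 2.69 FPKM, and the median member had 15.5 FPKM. The highest members are not cleanly ordered, since Gtf2a1 ranged from 67.8 to 114 FPKM over the 8 libraries, Taf9 from 59.8 to 82.6 and Polr2f from 33.0 to 78.6 FPKM. Ercc2 and Cdk7 also overlapped, at 1.02 to 2.81 and 2.43 to 3.0 FPKM.

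**Figure D1:**
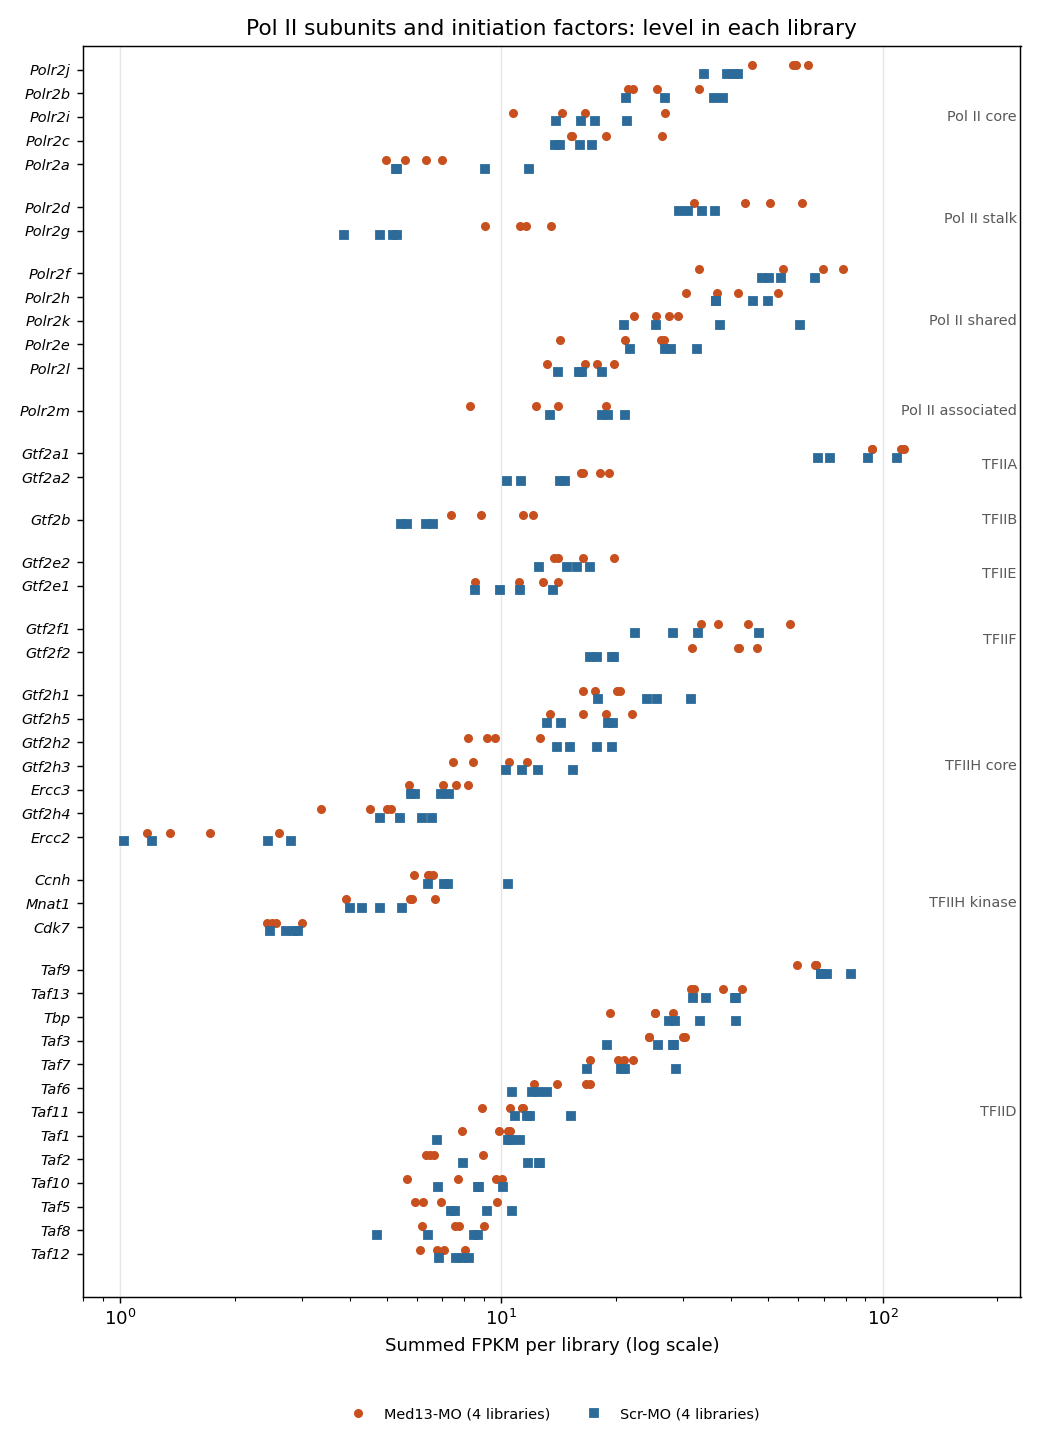
Summed FPKM of the 43 members (log axis) in each library, ordered within each complex by mean level, with Med13-MO as circles above Scr-MO as squares. The groups separate fully in 7 members, most widely in Polr2g and Gtf2f2, and overlap in the rest.

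Among the core subunits of the polymerase, Polr2j rose and 4 others did not pass. Polr2j encodes the small subunit that pairs with the Polr2c product to form the platform on which the enzyme is assembled. It had 45.3, 63.7, 58.3 and 59.4 FPKM in Med13-MO replicates 1 to 4, against 41.7, 40.7, 34.0 and 39.0 FPKM in Scr-MO replicates 1 to 4. All 4 Med13-MO libraries lay above the highest Scr-MO library, although replicate 1 did so by a small margin. The log2 difference was 0.53 ± 0.16 (SE; limma adjusted p = 0.0396), a fold of 1.44 with a 95% interval of 1.13 to 1.83. The call was lost without Med13-MO replicates 2, 3 or 4 or Scr-MO replicates 1, 3 or 4 (limma adjusted p 0.0623 to 0.132), and with no filter on low values (0.0862). Polr2j lies on GRCm38 chromosome 5, 136116631 to 136122947, plus strand, and 15.9% of its exonic bases are shared with Lrwd1 on the opposite strand.

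The catalytic subunits gave no difference beyond the spread. Polr2a, the largest subunit, which carries the repeated C-terminal tail, had 5.57, 6.33, 4.99 and 7.0 FPKM in Med13-MO, against 5.31, 5.29, 9.04 and 11.8 FPKM in Scr-MO. The Med13-MO libraries were close together and the Scr-MO libraries split, with replicates 3 and 4 high and replicates 1 and 2 within the Med13-MO range. The fold was 0.821 with an interval of 0.582 to 1.16 (limma adjusted p = 0.411). Polr2b, with which Polr2a forms the active centre, averaged 25.6 ± 5.32 FPKM in Med13-MO and 30.6 ± 7.98 FPKM in Scr-MO (SD, n = 4 each; limma adjusted p = 0.465). Polr2c stood at 18.9 ± 5.23 FPKM in Med13-MO and 15.3 ± 1.60 FPKM in Scr-MO, and the zinc-binding subunit Polr2i at 17.2 ± 6.95 FPKM in Med13-MO and 17.3 ± 3.11 FPKM in Scr-MO (limma adjusted p = 0.358 and 0.874).

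The stalk of the polymerase, which projects from the body of the enzyme and contacts the nascent RNA, held Polr2g, 1 of the 2 members that rose by 2-fold or more. Polr2g had 11.2, 11.6, 13.5 and 9.07 FPKM in Med13-MO replicates 1 to 4, against 5.32, 5.21, 4.80 and 3.86 FPKM in Scr-MO replicates 1 to 4. The lowest Med13-MO library was well above the highest Scr-MO library. The log2 difference was 1.08 ± 0.16 (SE; limma adjusted p = 0.00138), which is a fold of 2.12 with a 95% interval of 1.66 to 2.70, and the ratio of mean FPKM was 2.36. It was called in all 15 other fits, with limma adjusted p of 0.000778 to 0.00828 and log2 differences of 1.00 to 1.22. Polr2g lies on GRCm38 chromosome 19, 8793127 to 8798577, minus strand, has a single protein-coding transcript row, and shares no exonic base with another gene. By its GENCODE length, its values came to 115.3 to 412.7 fragments per library. These counts are not multiples of 0.5, unlike those of Polr2a. The length behind the deposited values may therefore differ, and the counts are approximate.

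Polr2d encodes the partner of the Polr2g product in the stalk. It had 32.0, 43.7, 50.5 and 61.3 FPKM in Med13-MO, against 36.4, 29.2, 33.7 and 30.8 FPKM in Scr-MO. Med13-MO replicates 2 to 4 were above every Scr-MO library and replicate 1 was within their range. The log2 difference of 0.48 ± 0.20 (SE) did not pass (limma adjusted p = 0.108). It passed without Med13-MO replicate 1 (log2 difference 0.65, limma adjusted p = 0.0298), with median-ratio scaling (0.0426) and with quantile normalization (0.0366).

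None of the 5 subunits that polymerase II shares with polymerases I and III passed, nor did Polr2m. The shared subunits Polr2e, Polr2f, Polr2h, Polr2k and Polr2l had log2 differences of -0.35 to 0.04 (limma adjusted p 0.306 to 0.917). Polr2f, the most abundant of them, had 33.0, 54.7, 69.6 and 78.6 FPKM in Med13-MO, against 50.4, 66.4, 54.2 and 48.2 FPKM in Scr-MO, and the Med13-MO libraries spread on both sides of all Scr-MO libraries. Polr2l, the least abundant, had 13.2, 16.5, 17.8 and 19.8 FPKM in Med13-MO, against 14.1, 16.3, 18.4 and 16 FPKM in Scr-MO. Polr2k was uneven in Scr-MO: it had 22.3 to 29.0 FPKM in Med13-MO, against 60.8 FPKM in Scr-MO replicate 2 and 21.0 to 37.5 FPKM in the other Scr-MO libraries. Polr2e had the smallest adjusted p of the shared subunits, with 14.3, 21.0, 26.2 and 26.7 FPKM in Med13-MO, against 26.9, 21.8, 32.6 and 27.8 FPKM in Scr-MO. The groups of Polr2l and Polr2e overlapped. Polr2m, whose protein binds the polymerase and makes its transcription in vitro depend on Mediator, had 8.30, 12.3, 14.1 and 18.8 FPKM in Med13-MO, against 19.0, 13.4, 21.1 and 18.3 FPKM in Scr-MO. Med13-MO replicates 3 and 4 lay within the Scr-MO range (fold 0.740, interval 0.528 to 1.04, limma adjusted p = 0.203).

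Of the 2 TFIIF genes, Gtf2f2 rose. Gtf2f2 encodes the small TFIIF subunit, which binds the polymerase and escorts it to the promoter. It had 31.7, 41.7, 46.9 and 41.9 FPKM in Med13-MO replicates 1 to 4, against 19.8, 19.5, 17.1 and 17.8 FPKM in Scr-MO replicates 1 to 4. Every Med13-MO library was higher than every Scr-MO library by more than the whole range of Scr-MO. The log2 difference was 1.07 ± 0.16 (SE; limma adjusted p = 0.00132), a fold of 2.11 with a 95% interval of 1.66 to 2.68. It too was called in all 15 other fits (limma adjusted p 0.000687 to 0.00801). Gtf2f2 lies on GRCm38 chromosome 14, 75896937 to 76010865, minus strand, has a single transcript row and shares no exonic base with another gene. Its partner Gtf2f1, the large subunit, had 33.4, 37.0, 44.4 and 57.1 FPKM in Med13-MO, against 47.3, 32.8, 28.3 and 22.4 FPKM in Scr-MO. The groups overlapped widely, and the log2 difference of 0.41 ± 0.23 (SE) did not pass (limma adjusted p = 0.249).

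**Figure D2:**
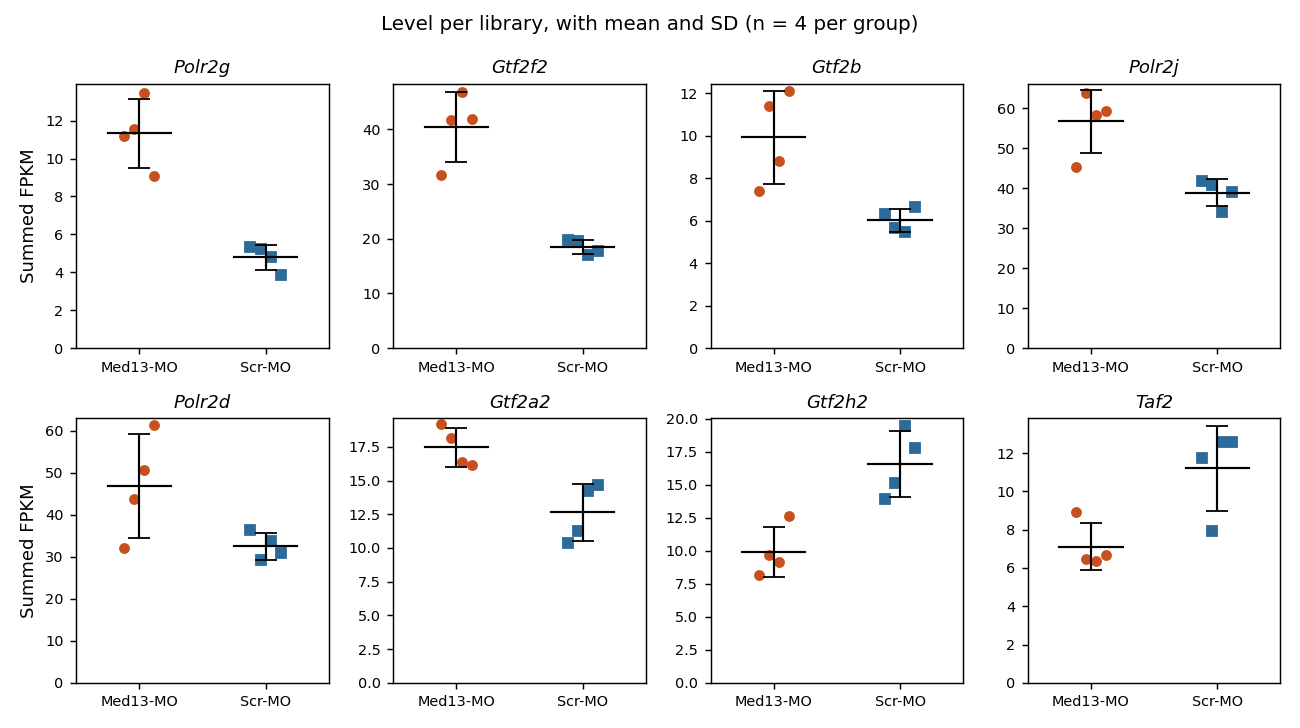
Summed FPKM per library of the 6 members that passed and of Polr2d and Gtf2a2, which did not, with the mean (long bar) and SD (n = 4 per group). In Polr2g, Gtf2f2, Gtf2b, Polr2j and Gtf2a2 all Med13-MO libraries are above all Scr-MO libraries, in Gtf2h2 all are below, and in Polr2d and Taf2 they overlap.

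TFIIB, the factor that bridges TBP and the polymerase and helps set the start site, is the product of Gtf2b, which rose. Gtf2b had 7.38, 11.4, 8.83 and 12.1 FPKM in Med13-MO, against 6.34, 5.66, 5.45 and 6.63 FPKM in Scr-MO. The groups did not overlap, with Med13-MO replicate 1 the nearest to Scr-MO. The log2 difference was 0.62 ± 0.17 (SE; limma adjusted p = 0.0282), a fold of 1.54 with a 95% interval of 1.19 to 1.99. The call was lost without Med13-MO replicates 2, 3 or 4 or Scr-MO replicates 1 or 3 (limma adjusted p 0.0510 to 0.0974), and with no filter on low values (0.0761). Gtf2b lies on GRCm38 chromosome 3, 142765045 to 142783606, plus strand. A related sequence, Gm9172, matches 64.9% of the main Gtf2b transcript at 92.4% identity.

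TFIIA, which stabilises TBP on DNA, has 2 subunit genes here. Gtf2a2 had 19.2, 18.2, 16.4 and 16.2 FPKM in Med13-MO, against 10.4, 11.3, 14.2 and 14.7 FPKM in Scr-MO. Its groups did not overlap, but the log2 difference of 0.45 ± 0.16 (SE) did not pass (limma adjusted p = 0.0717). With the main transcript only it passed (limma adjusted p = 0.0373), as it did after quantile normalization (0.0391) and after scaling by median ratios (0.0396). Gtf2a1, whose protein is cut into the other TFIIA chains, had 114, 111, 93.6 and 93.7 FPKM in Med13-MO, against 91.4, 109, 67.8 and 72.9 FPKM in Scr-MO (limma adjusted p = 0.286). Its Scr-MO libraries were spread widely, and replicate 2 alone lay among the Med13-MO libraries.

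TFIIE, which recruits TFIIH and sets it to work, showed no difference beyond the spread. Gtf2e1 had 11.1, 14.1, 12.9 and 8.55 FPKM in Med13-MO, against 11.2, 8.52, 9.90 and 13.7 FPKM in Scr-MO. Gtf2e2 had 13.7, 14.1, 16.4 and 19.7 FPKM in Med13-MO, against 17.1, 12.6, 15.8 and 14.9 FPKM in Scr-MO. The groups of both genes overlapped (limma adjusted p = 0.753 for Gtf2e1 and 0.787 for Gtf2e2). The 95% interval of the fold was 0.805 to 1.42 for Gtf2e1 and 0.821 to 1.35 for Gtf2e2, so differences inside these bounds could not be told from none.

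TFIIH had 1 call among its 10 genes. Gtf2h2, whose protein binds the helicase encoded by Ercc2 and stimulates it, had 8.17, 9.65, 9.17 and 12.6 FPKM in Med13-MO replicates 1 to 4. In Scr-MO replicates 1 to 4 it had 14.0, 15.1, 19.5 and 17.8 FPKM, all above the highest Med13-MO library. The log2 difference was -0.69 ± 0.17 (SE; limma adjusted p = 0.0177), a fold of 0.618 with a 95% interval of 0.477 to 0.80. The call was lost without Med13-MO replicates 2 or 3 or Scr-MO replicate 3 (limma adjusted p 0.0537 to 0.0598), and with no filter on low values (0.0542). Gtf2h2 lies on GRCm38 chromosome 13, 100460218 to 100492579, minus strand, and its sum runs over 9 transcript rows, of which protein-coding rows gave 19.9% in Med13-MO and 20.9% in Scr-MO.

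The other core TFIIH genes did not pass, with log2 differences of -0.37 to 0.12. Gtf2h1, which had the highest level, had 16.4, 17.6, 20.1 and 20.4 FPKM in Med13-MO, against 24.2, 17.9, 31.4 and 25.6 FPKM in Scr-MO (limma adjusted p = 0.175). Scr-MO replicate 2 was the library that overlapped Med13-MO, and without it Gtf2h1 passed (log2 difference -0.51, limma adjusted p = 0.0413). Gtf2h3 and Gtf2h4 had log2 differences of -0.35 and -0.30, and the DNA translocase Ercc3 and the small subunit Gtf2h5 of 0.12 and 0.09 (limma adjusted p 0.197 to 0.783). Ercc2, the helicase also needed for excision repair, had 1.18, 1.73, 1.35 and 2.62 FPKM in Med13-MO, against 1.21, 1.02, 2.81 and 2.45 FPKM in Scr-MO. Its 9 transcript rows are each below the filter, and 42.7% of its exonic bases are shared with other genes.

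The kinase arm of TFIIH, which phosphorylates the polymerase tail, gave no call. Cdk7, the kinase, had 2.43, 2.57, 3.0 and 2.50 FPKM in Med13-MO, against 2.85, 2.48, 2.73 and 2.93 FPKM in Scr-MO. The groups overlapped, and the fold of 0.967 had a 95% interval of 0.790 to 1.18 (limma adjusted p = 0.828). Its cyclin, Ccnh, had 6.64, 5.90, 6.40 and 6.44 FPKM in Med13-MO, against 7.09, 7.23, 10.4 and 6.43 FPKM in Scr-MO (limma adjusted p = 0.328). The assembly factor Mnat1 averaged 5.55 ± 1.17 FPKM in Med13-MO and 4.65 ± 0.647 FPKM in Scr-MO (SD, n = 4 each; limma adjusted p = 0.440).

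Among the 13 TFIID genes, Taf2 fell. Taf2, whose protein touches the initiator element around the start site together with that of Taf1, had 8.95, 6.49, 6.34 and 6.65 FPKM in Med13-MO, against 11.7, 7.94, 12.6 and 12.6 FPKM in Scr-MO. Med13-MO replicate 1 and Scr-MO replicate 2 made the groups overlap. The log2 difference was -0.58 ± 0.18 (SE; limma adjusted p = 0.0427), a fold of 0.668 with a 95% interval of 0.510 to 0.875. The call was lost without Med13-MO replicates 2, 3 or 4 or Scr-MO replicates 1, 3 or 4 (limma adjusted p 0.0704 to 0.120), and with no filter on low values (0.111). Taf2 lies on GRCm38 chromosome 15, 55015131 to 55072152, minus strand, with a single transcript row and no exonic base shared.

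Tbp, the DNA-binding heart of TFIID, did not pass. It had 19.3, 25.3, 25.3 and 28.3 FPKM in Med13-MO, against 28.6, 27.6, 33.2 and 41.2 FPKM in Scr-MO (log2 difference -0.39 ± 0.18 SE, limma adjusted p = 0.148). Med13-MO replicate 4 alone reached into the Scr-MO range. Of its 11 transcript rows, all tested, the 763-base protein-coding row fell (log2 difference -0.59, limma adjusted p = 0.0247). Pdcd2 on the opposite strand shares 19.0% of the exonic bases of Tbp.

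The other 11 TAF genes had log2 differences of -0.25 to 0.28. Taf9, a histone-fold protein also found in the SAGA coactivator, had 59.8, 66.7, 66.8 and 66.4 FPKM in Med13-MO, against 71.4, 82.6, 68.8 and 68.9 FPKM in Scr-MO. The groups did not overlap, yet the gap was small and the difference did not pass (fold 0.893, interval 0.719 to 1.11, limma adjusted p = 0.462). Taf9 shares 73.8% of its exonic bases with Ak6 on the same strand, so the values of the 2 genes cannot be told apart well. Taf12, the least abundant TFIID gene, had 8.02, 6.13, 6.77 and 7.08 FPKM in Med13-MO, against 7.62, 7.89, 6.84 and 8.25 FPKM in Scr-MO, with groups that overlapped. Taf1, the scaffold and largest subunit, averaged 9.68 ± 1.24 FPKM in Med13-MO and 9.75 ± 2.00 FPKM in Scr-MO, with an interval of 0.767 to 1.31 for the fold (limma adjusted p = 0.990). Taf3, which reads trimethylated lysine 4 of histone H3, averaged 27.2 ± 3.33 FPKM in Med13-MO and 25.3 ± 4.45 FPKM in Scr-MO (limma adjusted p = 0.690).

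In all, the groups did not overlap in 7 of the 43 members (16.3%), 5 higher and 2 lower in Med13-MO, against 21.6% of all genes tested. These were Polr2g, Gtf2f2, Gtf2b, Polr2j and Gtf2a2, and Gtf2h2 and Taf9. Single libraries stood at the edge of their group in many members. Med13-MO replicate 1 was the lowest of its group in 30 members (69.8%, against 41.9% of all genes tested), and Med13-MO replicate 4 the highest in 26 (60.5%, against 44.4%). Scr-MO replicate 2 was the lowest of its group in 20 members (46.5%, against 52.8% of all genes tested). The mean deviation of the members on the log2 scale was -0.20 in Med13-MO replicate 1, 0.19 in Med13-MO replicate 4 and -0.10 in Scr-MO replicate 2, beside -0.08, 0.08 and -0.12 over all genes tested. The part of these 3 libraries in the results above was not tested beyond leaving each out. Without Med13-MO replicate 1, 5 members rose and 2 fell, without Med13-MO replicate 4, 2 rose and 1 fell, and without Scr-MO replicate 2, 4 rose and 3 fell.

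**Figure D3:**
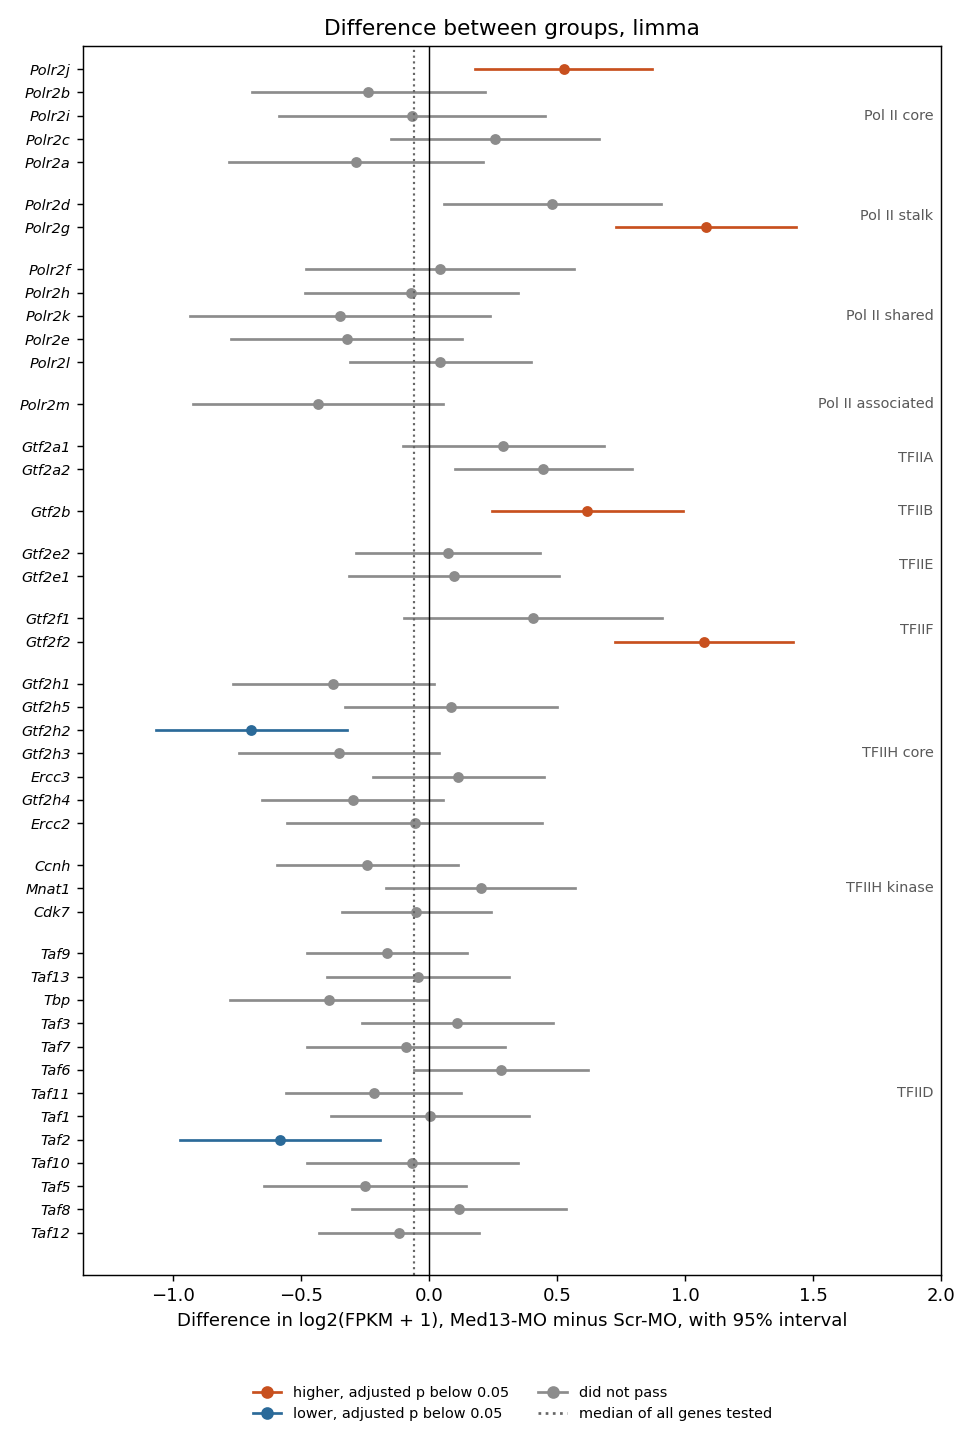
Difference in log2(FPKM + 1), Med13-MO minus Scr-MO, with the 95% interval from limma for the 43 members, by complex. Polr2g and Gtf2f2 stand at 1.08 and 1.07, and the intervals of most other members cross 0.

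Promoter sequences are shown for the called members that the RefSeq promoter table holds, because a core promoter is where the factors described here assemble. Each is 250 bases before to 50 after the RefSeq start, 5′ to 3′. Capitals mark matches on either strand to 5 motifs: the core of the box that TBP binds, spelt TATAAA, the motif CCAAT, the GC box GGGCGG, the core that ETS factors bind, CCGGAAG, and the core that YY1 binds, AANATGGCG. No match in the windows shown overlaps another.
Gtf2f2 promoter, GRCm38.p6 chr14:76010816-76011115, minus strand: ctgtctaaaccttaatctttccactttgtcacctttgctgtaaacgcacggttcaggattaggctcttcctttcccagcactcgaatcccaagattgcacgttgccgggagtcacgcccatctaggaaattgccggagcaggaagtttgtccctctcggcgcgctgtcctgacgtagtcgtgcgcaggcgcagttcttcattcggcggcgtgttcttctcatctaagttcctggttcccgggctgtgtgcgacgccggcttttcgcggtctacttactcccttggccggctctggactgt
Gtf2b promoter, GRCm38.p6 chr3:142764997-142765296, plus strand: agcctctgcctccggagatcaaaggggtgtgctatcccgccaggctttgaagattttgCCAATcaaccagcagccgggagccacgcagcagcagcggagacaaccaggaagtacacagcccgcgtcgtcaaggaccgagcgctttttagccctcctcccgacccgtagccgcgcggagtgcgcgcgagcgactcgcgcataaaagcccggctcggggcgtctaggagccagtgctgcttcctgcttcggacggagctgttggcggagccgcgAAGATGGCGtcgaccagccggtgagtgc
Polr2j promoter, GRCm38.p6 chr5:136116441-136116740, plus strand: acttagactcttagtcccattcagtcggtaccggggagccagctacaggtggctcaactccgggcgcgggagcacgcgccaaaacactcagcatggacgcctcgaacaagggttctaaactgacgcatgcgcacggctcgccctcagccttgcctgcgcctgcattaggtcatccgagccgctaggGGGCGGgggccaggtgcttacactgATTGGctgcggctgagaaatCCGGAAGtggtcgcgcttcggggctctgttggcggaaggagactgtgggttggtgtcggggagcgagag
Gtf2h2 promoter, GRCm38.p6 chr13:100492345-100492644, minus strand: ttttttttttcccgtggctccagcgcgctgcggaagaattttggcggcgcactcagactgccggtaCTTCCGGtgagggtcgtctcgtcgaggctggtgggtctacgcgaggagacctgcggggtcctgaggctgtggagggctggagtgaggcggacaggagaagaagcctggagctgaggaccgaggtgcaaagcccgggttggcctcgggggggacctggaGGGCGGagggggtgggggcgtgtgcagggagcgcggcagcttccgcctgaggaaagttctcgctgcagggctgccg
None of the 4 windows holds TATAAA, and that of Gtf2f2 holds no match, which says only that these letters are absent from this window.

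The GC box and the ETS motif stand both in Polr2j, which rose, and in Gtf2h2, which fell. In Polr2j the CCAAT box begins 39 bases before the RefSeq start and the ETS motif 19 bases before it. The AANATGGCG match of Gtf2b lies at 22 to 30 bases past the RefSeq start. The main GENCODE transcript starts further upstream, by 60 bases in Polr2j, 202 in Gtf2b and 167 in Gtf2h2, and at the same base in Gtf2f2. By that start, the CCAAT and ETS matches of Polr2j, both matches of Gtf2b and the GC box of Gtf2h2 lie inside the transcript. The GC box of Polr2j spans that start. The table holds 42 promoters for 35 of the 43 members. The GC box was in 66.7% of these 42 and in 35.7% of all 32851 promoters. It was in 60.2% of the 9602 promoters that the table holds for genes tested. Those are fewer than the 11755 genes tested, so not all of these genes are covered. The ETS motif was in 31.0% of the members' promoters, 18.6% of those of genes tested and 8.86% of all. TATAAA was in 19.0%, 7.45% and 13.6% of the same sets, CCAAT in 26.2%, 39.5% and 37.4%, and AANATGGCG in 11.9%, 5.62% and 2.38%. A match is a run of letters, not a bound site, and no binding was measured here.

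Subunits that pair in the complexes were also set against each other within each library, as a description without a test. The ratio of Polr2g to Polr2d FPKM was 0.35, 0.265, 0.267 and 0.148 in Med13-MO replicates 1 to 4, against 0.146, 0.179, 0.142 and 0.126 in Scr-MO replicates 1 to 4. Of the Med13-MO ratios, 3 exceeded every Scr-MO ratio, and that of replicate 4, where Polr2g was lowest and Polr2d highest, fell within the Scr-MO range. The ratio of Gtf2f2 to Gtf2f1 was 0.949, 1.13, 1.05 and 0.733 in Med13-MO, against 0.418, 0.595, 0.605 and 0.796 in Scr-MO. Here too Med13-MO replicate 4 was the library that overlapped. Among the 11 pairs, the groups did not overlap for Taf6 to Taf9, with ratios of 0.203 to 0.256 in Med13-MO and 0.129 to 0.191 in Scr-MO, and overlapped for the other 10. The shared exons of Taf9 and Ak6 bear on that ratio too. So may those of Taf6, which shares 26.5% of its exonic bases with Ap4m1 on the opposite strand.

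**Figure D4:**
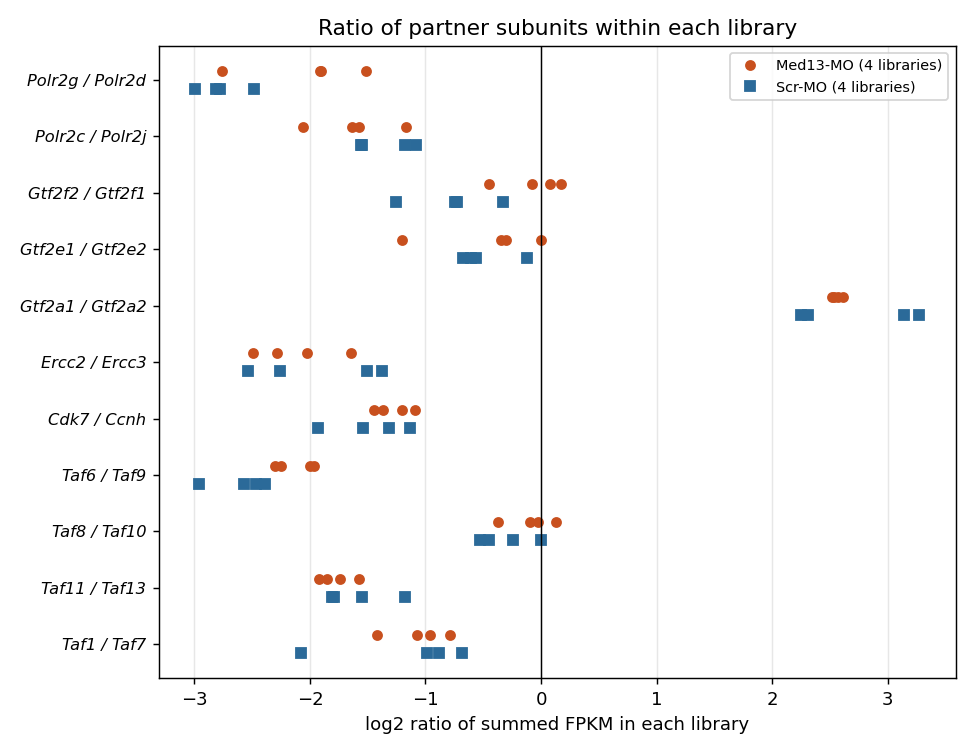
Log2 ratio of summed FPKM of 11 pairs of partner subunits in each library, Med13-MO as circles above Scr-MO as squares. Taf6 to Taf9 is the pair whose groups do not overlap, and Polr2g to Polr2d and Gtf2f2 to Gtf2f1 overlap by 1 Med13-MO library each.

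The sums hide several models per gene. The 43 members have 177 transcript rows, 123 of them with a mean FPKM of at least 1, and 12 members have a single row. By limma on rows, 5 rose and 4 fell (7.3% of the 123, against a background of 15.7% of all rows tested). The rising rows were those of Polr2g, Gtf2f2, the main Gtf2b row, a 900-base row of Polr2j and an 893-base row of Gtf2a2. The falling rows were 2 of Gtf2h2, 1 of Tbp and that of Taf2. For Taf10, a TAF shared with SAGA, protein-coding rows gave only 14.8% of the summed FPKM in Med13-MO and 22.1% in Scr-MO, and the rest was in retained-intron rows. Of the exonic bases of Taf10, 45.9% overlap Ilk on the opposite strand, and the near copy Gm4799 matches 71.2% of its main transcript. No source used here gives the way fragments were shared out between models, or whether strand was used.

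Genes that act next to this machinery were counted from lists, and the calls are few and to be read against the background of 9.29% of all genes called higher, 7.81% called lower and 17.1% called either way. Of 8 TBP regulators and cofactors, 1 fell: Dr1, a subunit of the NC2 repressor that blocks TFIIA and TFIIB from joining TBP. It had 28.5, 24.7, 27.0 and 25.2 FPKM in Med13-MO, against 68.9, 115, 45.9 and 37.6 FPKM in Scr-MO (log2 difference -1.18 ± 0.28 SE, limma adjusted p = 0.0145). The Med13-MO libraries were close together, below all of the widely spread Scr-MO libraries. Its NC2 partner Drap1 averaged 2.03 FPKM in Med13-MO and 1.87 FPKM in Scr-MO and did not pass (limma adjusted p = 0.801). Of 12 assembly and import factors, Gpn2 rose (log2 difference 0.72, limma adjusted p = 0.0086) and Gpn3 fell (-0.66, 0.0222). These are GTPases of the family that carries polymerase II into the nucleus. Of 12 phosphatases and binders of the polymerase tail, Ctdsp1 and Ctdspl, both small tail phosphatases, rose (0.80 and 0.98, limma adjusted p = 0.00925 and 0.00211). Both are low: Ctdsp1 averaged 2.30 FPKM in Med13-MO and 0.917 FPKM in Scr-MO, and Ctdspl 2.91 and 0.968 FPKM. At such levels differences in log2(FPKM + 1) understate the change.

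Of 12 polymerase III subunit genes, Polr3f and Polr3g fell (log2 differences -0.56 and -0.53, limma adjusted p = 0.0194 and 0.0433) and none rose. That is a share near the background of 17.1% for any call, as are the 2 calls of 12 in both of the lists of assembly factors and of tail phosphatases and binders. None of the 7 tested paralogs and variants of TBP and TFIID passed, with a median log2 difference of -0.28. The egg form of TBP, Tbpl2, was below the filter, with 0.749, 1.03, 0.273 and 0.487 FPKM in Med13-MO, against 0.186, 0.230, 0.116 and 0.124 FPKM in Scr-MO. Its groups did not overlap, at levels where it was not tested. The median log2 differences of the other 4 lists were -0.13 to 0.04, beside -0.06 for all genes tested. Unlike those of the members, the calls in these lists were not checked under other settings or without single libraries.

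The calls differed in how far they held across settings. Polr2g and Gtf2f2 were called in all 7 other settings and in all 8 fits that left out a library. Gtf2h2 was called in 6 of the 7 and 5 of the 8, Gtf2b in 6 and 3, and Polr2j and Taf2 in 6 and 2. Gtf2a2 and Polr2d, which did not pass, were each called in 3 of the 15. Not all of these settings could change the values of a member. Polr2g, Gtf2f2 and Taf2 have 1 protein-coding row each. Their values were therefore the same with protein-coding rows only and with the main row only. The settings that moved the filter changed only which genes were tested beside them.

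**Figure D5:**
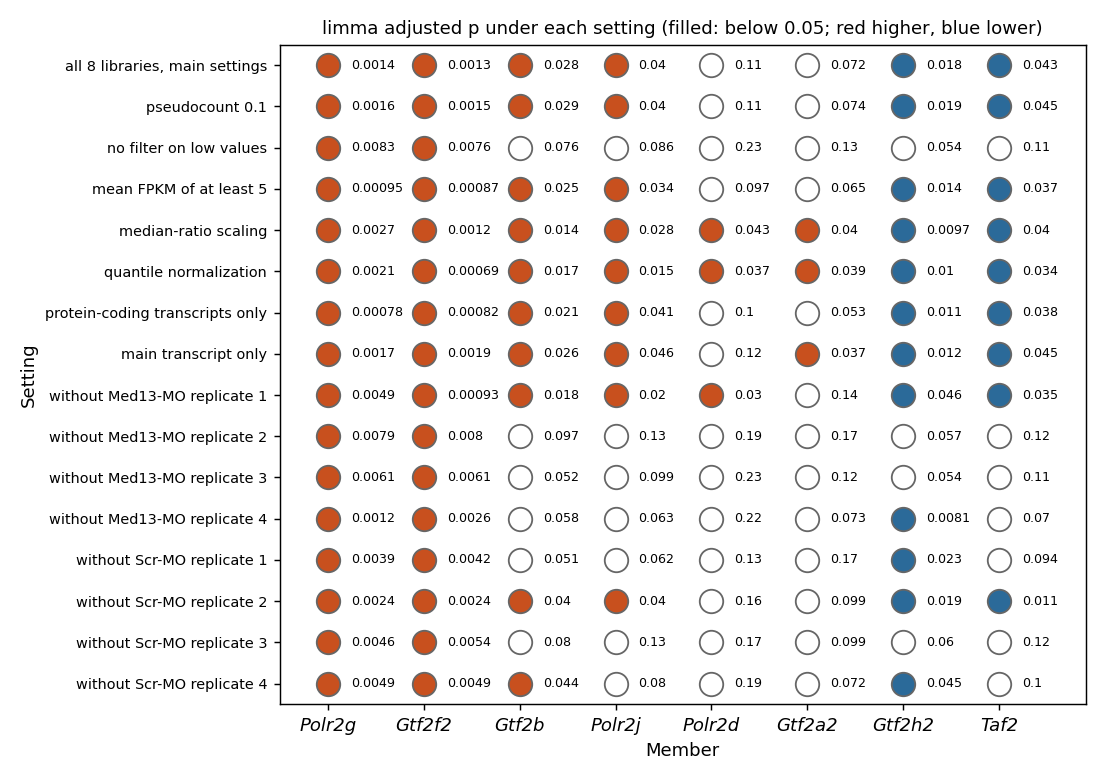
Limma adjusted p of the 6 called members and of Polr2d and Gtf2a2 under the main settings and 15 others, filled where below 0.05. Polr2g and Gtf2f2 are filled in every row, and the other 6 members in some rows only.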

How the data were processed

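The authors deposited 1 table of FPKM values per Ensembl transcript for 8 libraries. Per the submitters' processing notes, BWA and the mm10 build were used; no source used here gives the version, the counting tool or the annotation. Per the labels' protocols, each group had 4 separate collections of 40 embryos, so p-values measure the spread between collections, and RNA was amplified before library preparation; no molecular identifiers are named.

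In 3758 of 97496 rows, those whose symbol holds a hyphen, values are moved by 1 column. They were left out, and 0 of them belong to a member. In the column of Scr-MO replicate 1 the authors' values are therefore FPKM beside other text. Of the rows used, 98.7% matched GENCODE M21 (GRCm38), which gave lengths, loci and biotypes. The smallest step in the low values was taken to be 0.5 fragments, which gave the library totals. Within 0.005 fragments, 94.3% to 94.4% of low values were multiples of that step. This shows that a step exists but not its size, so totals and fragment counts rest on the size taken.

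Rows were summed per symbol. The authors' values were put on a log2 scale as log2(FPKM + 1), which understates changes of low genes, kept at a mean FPKM of at least 1, and tested with limma 3.58.1 in R 4.3.3 (two-sided, with a trend of variance on mean level and no covariate; Benjamini-Hochberg adjustment over all genes tested). The script was tested on simulated data. Copies were sought with blastn 2.17.0 at 90% identity or more. Promoters came from RefSeq (GRCm38.p6).

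The members and lists were chosen with earlier results of these data known. Full values are given for members called, members whose groups do not overlap, and, per complex, the highest, the lowest and the smallest adjusted p; others named were chosen for their role.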

Additional observations from a re-analysis of the deposited data

Results flagged for a closer look

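Of 86 groups of 4 libraries (43 members in both groups), 3 held a library whose gap to the others exceeded the 95% critical value of Dixon's test. Chance flags about 1 in 20 groups, or 4.3 here. Taf2 had 8.95 FPKM in Med13-MO replicate 1, against 6.34 to 6.65 FPKM in the other Med13-MO libraries. Taf9 had 59.8 FPKM in Med13-MO replicate 1, against 66.4 to 66.8 FPKM in the others of that group. Taf1 had 6.79 FPKM in Scr-MO replicate 2, against 10.4 to 11.2 FPKM in the other Scr-MO libraries.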

How the results depend on the processing

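Beside the settings reported, 7 other settings and leaving out each of 8 libraries were tried. Polr2g and Gtf2f2 were called higher in all 15, although some of these settings left their values unchanged. Without a filter on low values 2 members were called higher and 0 lower, with 623 and 389 of all genes and 2 and 1 of the member transcript rows. More genes were tested there. At a mean FPKM of at least 5, all genes called came to 576 higher and 561 lower, from fewer genes tested. Median-ratio scaling gave 10 member transcript rows higher; the cause was not tested. Leaving out 1 library gave 2 to 5 members higher and 0 to 3 lower, 608 to 1086 of all genes higher and 348 to 1353 lower, and 2 to 7 member transcript rows higher and 1 to 9 lower. The lowest counts of members came without Med13-MO replicates 2 or 3 or Scr-MO replicate 3. No called member changed direction. The median log2 difference over all genes was -0.06, -0.02 with median-ratio scaling and -0.05 with quantile normalization. The log2 difference of Med13 stayed within -0.00 and 0.11. Its alternatives, and those of the partner ratios, were chosen after seeing the data. No paired analysis was run, because the labels give the groups no shared replicate numbers. The library codes in the sample titles alternate between the groups, but no label says that neighbouring codes share a collection. The replicate numbers used here were given in accession order and only name libraries. The most abundant transcript rows of Ercc2 and Gtf2h4 rested on as few as 27 and 19.5 fragments per library, which limits both rows. The summed levels of these genes run over 9 and 11 rows. Intervals cover the spread between 4 libraries.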

Other observations

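The members Gtf2h2, Taf9 and Cdk7 lie within 271 kb of each other on GRCm38 chromosome 13. Gtf2h2 fell (log2 difference -0.69, limma adjusted p = 0.0177), while Taf9 and Cdk7 had log2 differences of -0.16 and -0.05 and did not pass (limma adjusted p = 0.462 and 0.828). The stretch was noticed after the values were seen, and the differences between these genes were not tested.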
